A study of Cloeon viridulum with 15 samples.

Results

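Whole adult mayflies of Cloeon viridulum, the imagoes, were compared with a pooled mixture of life stages that serves as the control of the series. The comparison covers assembled transcript sequences, called unigenes, whose best protein hit comes from an animal. These were 17344 of the 91881 unigenes (18.9%), of which 15002 had an arthropod hit and 2342 a hit in another animal. A filter on low read counts left 13442 of them for testing, 11941 with an arthropod hit and 1501 with another animal hit. The choice used the species code of the hit and no expression value.

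A mayfly larva lives in water and passes through many moults. It leaves the water as a winged subimago, which moults again into the imago, the sexually mature adult. Winged mayflies do not feed, live briefly, and use this time to mate and lay eggs. Ecdysteroids, the moulting hormones of insects, drive the making of a new cuticle before each moult, and the imago has no further moult ahead of it.

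RNA of whole bodies was sequenced in 15 libraries, with 3 each of young larvae, mature larvae, subimagoes, imagoes and the mixture. An imago library pooled 3 males and 3 females. A mixture library pooled 5 young larvae, 2 mature larvae, 2 subimagoes and 2 imagoes, so the control itself held imagoes. All larvae came from the field and were reared indoors on a cycle of 16 h light and 8 h dark, at 22 ± 1 °C and a relative humidity of 60%. No treatment was applied, and the labels give no age in days. Which sexes the mixture held is not stated in the labels. Libraries of a group are biological replicates per the labels, each from its own pool. The imago libraries held 42017488 to 46642654 reads and the mixture libraries 37396984 to 48915598.

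The 3 imago libraries resembled each other more closely than the 3 mixture libraries did. The median absolute log2 difference between any pair of libraries over the tested animal-hit unigenes was 0.0990 to 0.104 within the imago and 0.191 to 0.259 within the mixture. Between an imago and a mixture library it was 0.276 to 0.507. Animal-hit unigenes took 77.6%, 63.9% and 78.2% of reads in imago libraries 1, 2 and 3 and 56.6%, 54.4% and 44.9% in mixture libraries 1, 2 and 3. A single unigene without a protein hit took 34.3% of reads in mixture library 3 and 18.5% in imago library 2, and under 0.01% in the other 4 libraries compared. Among libraries that only shared the estimate of the spread, mature larva library 1 stood apart from the other two on the first principal component, at -180 against 64.8 and 74.1. Its part in the spread was measured by leaving it out.

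Between the imago and the mixture, edgeR's quasi-likelihood test called 1504 animal-hit unigenes higher in the imago, which is 11.2% of those tested. It called 1588 lower, which is 11.8%. The call needed a Benjamini-Hochberg adjusted p under 0.05 over all 34131 unigenes tested. Over all tested unigenes, whatever their hit, 5.22% were called higher and 11.5% lower. All 3 imago libraries lay above all 3 mixture libraries for 33.2% of the tested animal-hit unigenes and below them for 23.6%. The median log2 change over the 13442 was 0.05.

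Rises were small and falls were large. Each mixture library held imagoes, so imago transcripts were in the control by design. Pooled imagoes can limit the size of a rise in a way that does not apply to a fall. How much of the difference in size goes with this was not tested. The median log2 change was 0.62 among the unigenes called higher and -1.77 among those called lower. Only 110 rises went beyond a log2 change of 1 and 12 beyond 2, with the largest at 4.91. Against these, 1263 falls went beyond -1 and 214 beyond -5. Of the unigenes called lower, 37 had no imago read, and setting these to a floor of 3 reads over the group left the median at -1.77 and 192 falls beyond -5. Unigenes called higher together made up 33.6% to 34.1% of the animal-hit CPM (read counts scaled by library size and TMM factor) in the imago libraries and 19.0% to 24.1% in the mixture libraries. Those called lower made up 5.79% to 6.04% in the imago and 19.4% to 30.8% in the mixture. No animal-hit unigene had at least 10 reads in every imago library and none in the mixture, where pooled imagoes make this unlikely. In the other direction there were 10, among them a second Cuticle protein 19 (13_Contig_8291) and Chymotrypsin 5 (13_Contig_22034), chosen for mention after their values were seen.

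The number of rises called changed with the library left out and with the scaling, and the falls did so less. With imago library 1, 2 or 3 left out, 126, 232 or 157 rises were called, and without mixture library 2 there were 115. Without mixture library 1 or 3 the count was 1443 or 2009. The typical tested unigene's log2 change, taken as the median shift over all tested unigenes, moved by 0, 0 and 0.0023 without imago library 1, 2 or 3. Without mixture library 2 it moved by -0.025. Shifts up and down cancel in such a median, so it does not show how far called rises moved. Named rises that lost calls moved by unlike amounts on the log2 scale. With 1 library left out, Protein abnormal spindle (13_Contig_12173) ranged from 1.07 to 1.76 and Proliferating cell nuclear antigen (13_Contig_3935) from 0.54 to 0.62. Falls ranged from 819 without imago library 3 to 1400 without mixture library 3. Rises made up 48.6% of calls with TMM scaling, 74.5% with RLE size factors, 84.3% with library totals alone and 28.2% with TMM factors from arthropod-hit unigenes. These scalings moved the typical unigene's log2 change by 0.19, 0.46 and -0.18, so a change of that size has no fixed sign. Because whole bodies were sequenced, fewer cells of a type and less RNA per cell cannot be told apart in any of the changes below.

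**Figure D1:**
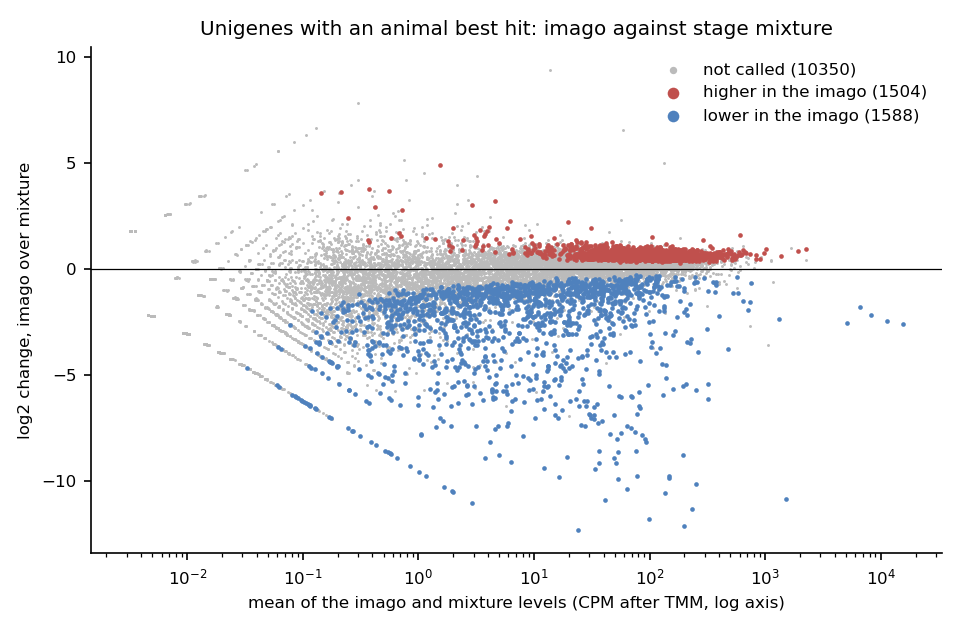
Log2 change imago over mixture of each tested animal-hit unigene (vertical axis) against its level in CPM on a log axis (horizontal axis), with called unigenes coloured by direction. Most of the 1504 rises lie in a thin band close to 0 with a median of 0.62, and the largest is 4.91. The 1588 falls spread down to -12.34.

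Called unigenes also differed by the stage in which they were highest. Of the 1504 called higher, 1443 (95.9%) had their highest stage mean in the imago. Of the 1588 called lower, 747 (47%) were highest in the young larva, 471 (29.7%) in the mature larva and 367 (23.1%) in the subimago. Over all tested animal-hit unigenes the shares were 37.9% young larva, 10.5% mature larva, 17.4% subimago and 34.2% imago. The imago libraries enter both the calls and the stage means, so this is a description without a test.

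The mixture did not look like its list of animals. Each mixture library was written as a weighted sum of the 4 stage means, with no negative weight. Young larvae, 45.5% of the pooled animals, received weights of 8.57%, 3.90% and 0% in mixture libraries 1, 2 and 3. Subimagoes, 18.2% of the animals, received 73.3%, 52.8% and 28.2%. The imago weight was 18.2%, 14.0% and 29.9%, with a mean of 20.7%, and the mature larva weight was 0%, 29.3% and 41.9%. Mixture libraries 1 and 3 thus differed most in how much subimago and mature larva RNA their profile resembled. The amount of RNA each animal gave to a pool is not stated in the labels. Mature larva library 1, which stood apart from the others of its stage, entered the mature larva mean. Its effect on the young larva and mature larva weights was not tested.

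**Figure D2:**
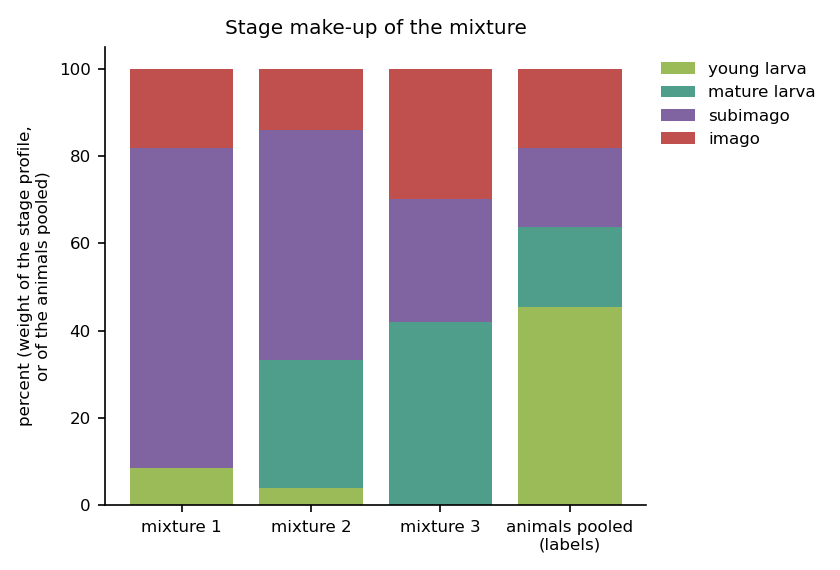
Weight of each stage in percent (vertical axis) for the 3 mixture libraries, beside the share of pooled animals given by the labels. The subimago weight falls between 28.2% and 73.3% in all 3 libraries, above its 18.2% of the animals, while the young larva weight stays at or below 8.57%.

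Cuticular proteins, the structural proteins that bind chitin in the exoskeleton, had the lowest median change of the 28 gene lists. Of 43 such unigenes with an animal hit, 32 were tested, none was called higher and 24 fell, with a median log2 change of -5.14. The summed level of the tested members was 48.3, 63.4 and 55.4 CPM in the imago libraries and 2383, 2156 and 590.0 CPM in the mixture libraries. With 1 library left out, 16 to 25 of them fell. Among the 24, the highest stage was the young larva for 12 and the subimago for 11.

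Adult-specific cuticular protein ACP-20 (13_Contig_25170), named after a beetle protein, stood at 0.306, 0.318 and 0.291 CPM in the imago and at 462, 351 and 63.8 CPM in the mixture. All imago libraries lay far below all mixture libraries, and mixture library 3 held the least of its group. The log2 change was -9.89 ± 1.00 (SE, adjusted p = 0.000147). Its stage means were 38.6 CPM in young larvae, 29.3 in mature larvae and 969.8 in subimagoes, so the subimago held most of it. Cuticular protein CPR67Bc (13_Contig_1860) showed the same stage order, with 394 ± 72.0 CPM in the subimago (SD, n = 3) and 0.174 ± 0.0676 in the imago. Its levels were 246, 190.5 and 33.5 CPM in the mixture libraries, and its log2 change was -9.80.

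Cuticle protein 19 (13_Contig_301) had 1 read in the 3 imago libraries together. It reached 60.1, 69.6 and 15.2 CPM in the mixture. The mixture level was 7295 times the imago level, with an exact 95% Poisson interval of 1309 to 2.88e+05 that covers counting error only. Unlike ACP-20, it was abundant in young larvae (100.4 ± 34.9 CPM) as well as in subimagoes (58.6 ± 4.03 CPM). A Putative cuticular protein (13_Contig_4884) and Cuticular protein analogous to peritrophins 1-G (13_Contig_942) showed log2 changes of -8.61 and -8.05. Pro-resilin, the precursor of the rubber-like protein of elastic cuticle, was lower in both called unigenes (13_Contig_10042 and 13_Contig_11399), by 3.28 and 3.03 on the log2 scale. Pro-resilin was picked after its values were seen.

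**Figure D3:**
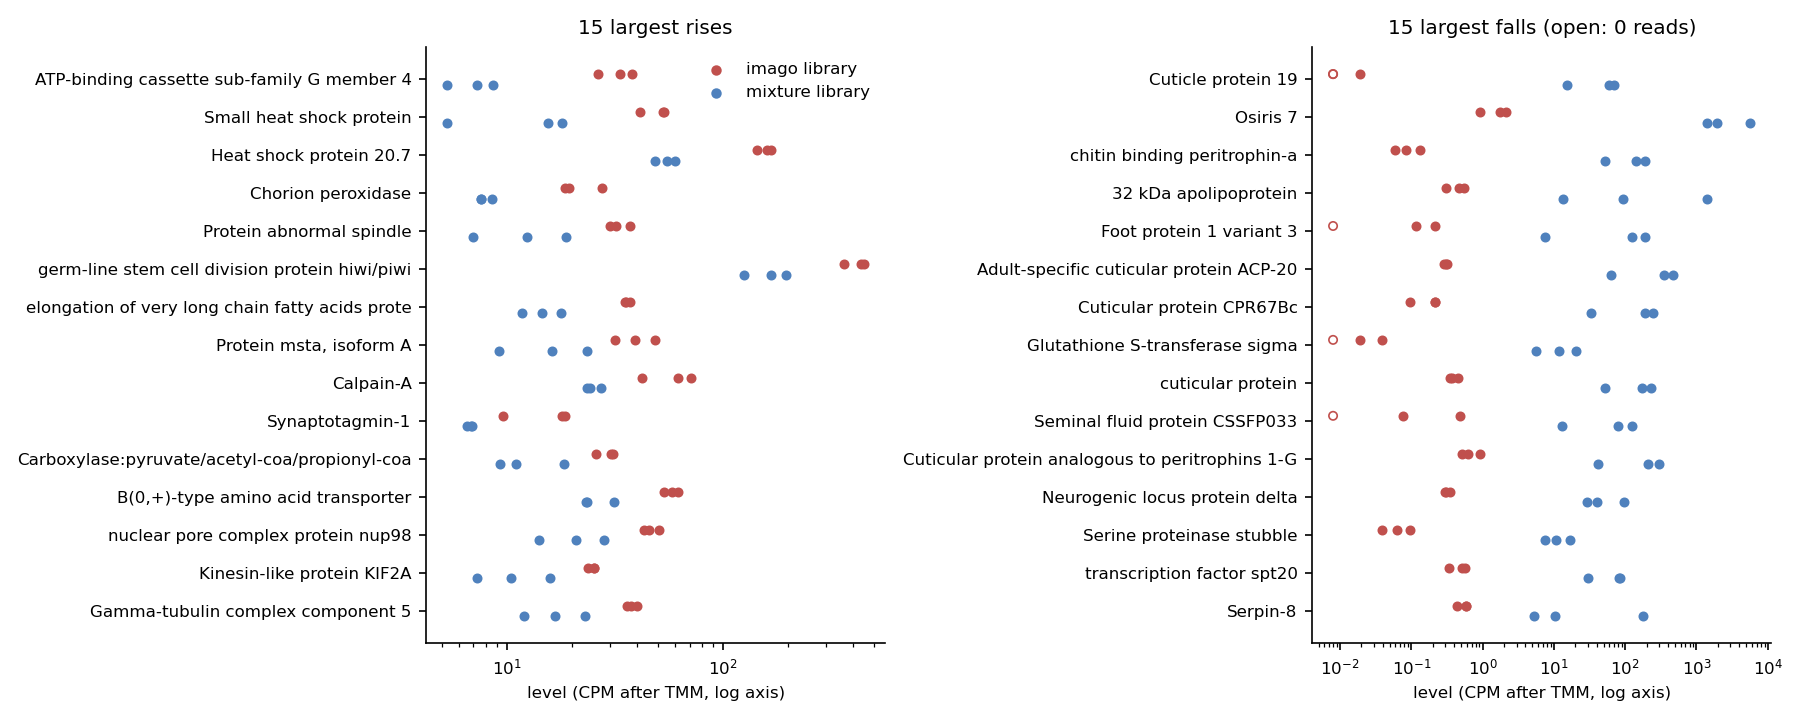
Levels in CPM on a log axis of the 15 largest rises and 15 largest falls in each of the 3 imago and 3 mixture libraries, 1 point per library. Open circles mark a library with 0 reads and are drawn at the left edge. The groups do not overlap in any of these 30 unigenes, as the rule for choosing them required, and the falls lie much farther apart than the rises.

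Enzymes that make and remodel chitin also gave falls and no rise. In the list for chitin synthesis, turnover and tanning, 63 of 89 unigenes were tested, 0 were called higher and 19 fell, with a median log2 change of -1.46, and 14 to 19 fell with 1 library left out. Chitin synthase, which polymerises chitin at the cell membrane, appeared as unigenes 13_Contig_2861 and 13_Contig_3176, which may be pieces of 1 gene or separate genes. The first stood at 4.15, 6.49 and 4.68 CPM in the imago and at 71.7, 84.2 and 58.6 CPM in the mixture, and the second at 4.46, 5.09 and 4.43 against 86.7, 102 and 64.8 CPM. The groups were far apart for both, with log2 changes of -3.81 ± 0.25 and -4.18 ± 0.30 and adjusted p-values of 1.62e-05 and 1.87e-05. Putative chitinase 3 (13_Contig_1449), of the family that digests old cuticle, fell from 178, 214 and 146 CPM in the mixture to 19.7, 23.9 and 19.9 CPM in the imago. For all of these the subimago held the highest stage mean.

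A chitin binding peritrophin-A protein (13_Contig_4094) dropped by 10.38 on the log2 scale, from 140.0, 188 and 51.7 CPM to 0.134, 0.0848 and 0.0582 CPM. Laccase 2 (13_Contig_2049), the phenol oxidase that hardens and darkens insect cuticle, was at 80.3, 91.8 and 55.9 CPM in the imago and at 624, 899 and 116 CPM in the mixture (adjusted p = 0.0232). Unigenes named Protein yellow, a factor of cuticle pigmentation in Drosophila, fell by 5.71 (13_Contig_9119) and 4.70 (13_Contig_1572) on the log2 scale. For Laccase 2 and Protein yellow, mixture library 3 came closest to the imago libraries but still lay above them. Laccase 2 and Protein yellow were picked after their values were seen.

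Several further unigenes fell as steeply, all but 1 of them outside the gene lists. Osiris 7 (13_Contig_655), of an insect family expressed in cuticle-forming epithelia of Drosophila, was at 2.10, 1.78 and 0.932 CPM in the imago and at 1417, 1919.9 and 5720.4 CPM in the mixture. That is a mean fold of 1880.2 and a log2 change of -10.87 ± 1.27 (adjusted p = 0.000302). Osiris 7 was at 2507 ± 1732 CPM in mature larvae and 3552 ± 1579 CPM in subimagoes. Serine proteinase stubble (13_Contig_8419), a membrane protease needed for shaping legs and wings in Drosophila, fell by 7.40 on the log2 scale (adjusted p = 2.29e-05). Its highest stage mean was 20.5 ± 3.06 CPM in the subimago. Putative transcription factor spt20 (13_Contig_6450) stood at 0.516, 0.339 and 0.563 CPM against 84.7, 82.4 and 29.6 CPM. Neurogenic locus protein delta (13_Contig_8041), by name a Notch ligand and a member of the wing list, stood at 0.344, 0.297 and 0.311 CPM against 28.9, 39.97 and 97.6 CPM, and every imago library was far below every mixture library for both.

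Foot protein 1 variant 3 (13_Contig_19594) was a larval transcript, with 949 ± 55.4 CPM in young larvae, 124 ± 151 in mature larvae and 0.129 ± 0.0811 in subimagoes. In the imago it was at 0, 0.212 and 0.116 CPM and in the mixture at 191, 124 and 7.43 CPM. Seminal fluid protein CSSFP033 (13_Contig_9399) was named after a protein of male ejaculate, yet stood at 0, 0.488 and 0.0777 CPM in the imago, whose libraries held males. It was at 79.9, 125 and 12.9 CPM in the mixture and at 90.2 ± 19.0 CPM in the subimago. The log2 changes were -9.93 ± 1.68 and -8.60 ± 1.36, with adjusted p-values of 0.00306 and 0.00205.

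Ecdysteroid genes went both ways. Of 28 unigenes for ecdysteroid synthesis and response, 21 were tested, of which 3 rose and 4 fell. As shares, 14.3% rose and 19.0% fell, beside 11.2% and 11.8% over all tested animal-hit unigenes. The median log2 change was -0.15 and turned positive under other scalings. Putative nuclear hormone receptor HR3 (13_Contig_1820), a receptor induced early in the ecdysone response of Drosophila, stood at 31.2, 36.4 and 28.5 CPM in the imago and 316, 363 and 786 CPM in the mixture. No imago library came near a mixture library, and the log2 change was -3.93 ± 0.58 (adjusted p = 0.00138). Unigenes named broad-complex, a transcription factor of the moulting response, were split. Isoform 6 (13_Contig_1375) fell by 1.61 on the log2 scale and was highest in the mature larva at 236 ± 85.5 CPM. The unigenes for isoforms 1/2/3/4/5 (13_Contig_5238 and 13_Contig_8397) rose by 0.49 and 0.51 on the log2 scale. Putative ecdysteroid kinase (13_Contig_7597), by name an enzyme that stores ecdysteroid as a phosphate, rose by 0.76. All 3 rises lost their call without imago library 1, 2 or 3 or without mixture library 2.

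Juvenile hormone, which holds insects in the larval state and later governs egg production in many of them, had few called genes. Of 26 unigenes on its synthesis and response, 18 were tested, none was called higher and 1 fell, and the median log2 change of -0.24 changed sign with the scaling. Neuropeptides and their receptors gave 4 falls and no rise among 47 tested of 53, a share below the 11.8% over all tested animal-hit unigenes. Only 1 to 2 fell with 1 library left out, and here too the median, -0.21, changed sign. Neuropeptide GPCR A5 (13_Contig_12648) was at 2.47, 2.59 and 2.43 CPM in the imago and at 6.29, 6.35 and 8.07 CPM in the mixture. These groups were well separated, with an adjusted p of 0.000389 and a mean 2.77 times higher in the mixture. Tachykinin (13_Contig_13160), a brain and gut peptide, was lower in the imago by 0.58 on the log2 scale (adjusted p = 0.0498) and lost its call when any 1 of the 6 libraries was left out.

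Nerve genes fell in number but by modest amounts. Of 105 unigenes for neurotransmitter receptors and ion channels of nerve, 98 were tested, 45 fell and 2 rose, with a median log2 change of -0.94. The falls numbered 27, 25 and 14 without imago library 1, 2 or 3 and 34, 26 and 33 without mixture library 1, 2 or 3. Library totals alone gave 10 falls and 9 rises, and RLE size factors 37 and 8. The highest stage was the mature larva for 23 of the 45. Metabotropic glutamate receptor 2 (13_Contig_203) stood at 11.7, 8.99 and 10.5 CPM in the imago and at 46.7, 51.1 and 69.1 CPM in the mixture. The calcium-activated potassium channel slowpoke (13_Contig_13995), which repolarises nerve and muscle cells, stood at 7.59, 6.79 and 5.11 CPM against 26.9, 28 and 22.5 CPM. Both were clearly lower in all imago libraries, by 2.42 ± 0.26 and 1.99 ± 0.24 on the log2 scale, with adjusted p-values of 0.000173 and 0.000352. Glutamate-gated chloride channel (13_Contig_10310), an inhibitory receptor of invertebrates, rose instead, at 17.0, 17.2 and 18.3 CPM against 9.54, 9.08 and 7.29 CPM. Its log2 change was 1.02 ± 0.22 (adjusted p = 0.0115).

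Unigenes of synaptic vesicles, picked after their values were seen, moved in both directions. Synaptotagmin 1 (13_Contig_3859), the calcium sensor of transmitter release, fell by 1.06 on the log2 scale, and Vesicular acetylcholine transporter (13_Contig_4311) fell by 1.09. A different unigene, Synaptotagmin-1, putative (13_Contig_9804), was at 9.60, 17.9 and 18.7 CPM in the imago and 6.89, 6.58 and 6.82 CPM in the mixture. The imago libraries were above the mixture, the first of them by least, and this rise of 1.19 on the log2 scale kept its call in each of the 6 leave-one-out fits.

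Some muscle genes were lower in the imago than in the mixture. Of 96 unigenes for muscle structure, 54 were tested, 11 fell and none was called higher, with a median log2 change of -0.86. Only 5 fell without imago library 1, 7 without imago library 3 and 6 without mixture library 2. All 11 had their highest stage mean in the young larva. Putative titin (13_Contig_323), the elastic giant protein of the sarcomere, was at 14.5, 16.4 and 14.5 CPM in the imago and at 87.3, 77.5 and 53.1 CPM in the mixture. Muscle M-line assembly protein unc-89 (13_Contig_1640), named after the worm homologue of obscurin, was at 47.5, 60.3 and 53.6 CPM against 207, 307 and 122 CPM. The groups were apart in both, and the log2 changes were -2.26 ± 0.36 and -1.98 ± 0.32 (adjusted p = 0.00183 and 0.00211). Flightin (13_Contig_7530), a thick filament protein of insect flight muscle in Drosophila, was picked after its values were seen. It stood at 1398 ± 162 CPM in young larvae and at 26.4 ± 6.05 CPM in the winged imago. Its 3 imago values of 22.0, 24.0 and 33.3 CPM overlapped the lowest mixture value of 28.4 CPM, although the unigene was called (adjusted p = 0.0386).

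Part of the genes of the eye fell. All 25 photoreception unigenes were tested, 10 fell and none was called higher, with a median log2 change of -1.06. Arrestin1 (13_Contig_677), which shuts off light-activated rhodopsin, was at 21.2, 51.3 and 27.8 CPM in the imago and at 244, 185 and 431 CPM in the mixture. Chaoptin-like protein-4 (13_Contig_8491), of a family of adhesion proteins of photoreceptor cells, was at 8.21, 8.50 and 6.43 CPM against 58.4, 70.9 and 90.1 CPM. For both, every imago library was below every mixture library, and both were highest in the mature larva, at 641 ± 207 and 204 ± 103 CPM. The log2 changes were -3.10 ± 0.52 and -3.24 ± 0.35 (adjusted p = 0.00274 and 0.000193). Transient receptor potential protein (13_Contig_10648), the cation channel of fly phototransduction, fell by 1.57 on the log2 scale.

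Opsins, the visual pigments themselves, were picked after their values were seen. Opsin, ultraviolet-sensitive (13_Contig_12636), fell from 17.8, 10.3 and 18.4 CPM in the mixture to 1.11, 1.48 and 1.92 CPM in the imago. Rhodopsin (13_Contig_1132) fell by 1.06 on the log2 scale, and its young larva mean of 1753 ± 262 CPM was its highest. A blue-sensitive visual pigment (13_Contig_194) had a mean of 164 CPM in the imago and 1971 CPM in the mixture but missed the call, with an adjusted p of 0.0504.

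Chemoreception gave 7 falls and no rise among 27 tested of 47 unigenes, with a median log2 change of -1.93. Without imago library 1 or 2, 4 fell, and without mixture library 1 the median was -0.40. Chemosensory protein 2 (13_Contig_5261), a small carrier of hydrophobic ligands, was at 12.0, 11.4 and 13.1 CPM in the imago and at 61.1, 53.2 and 24.5 CPM in the mixture. These groups did not overlap, and the log2 change was -1.93 ± 0.31 (adjusted p = 0.00226). An Odorant receptor (13_Contig_2497), picked after its values were seen, fell by 2.64 on the log2 scale. Calls for Odorant binding protein 5 (13_Contig_665) and a Putative chemosensory protein (13_Contig_11850) followed high values in mixture library 1. In that library they stood at 26.7 and 33.9 CPM, against at most 0.361 and 0.527 CPM in the other mixture libraries, and without it their adjusted p rose to 0.940 and 0.615. Both calls were also lost without imago library 1, 2 or 3.

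Digestive enzymes fell more often than they rose. Of 247 unigenes, 181 were tested, 36 fell and 4 rose, with a median log2 change of -1.14, and the young larva was the highest stage for 22 of the falls. The falls numbered 17, 20 and 18 without imago library 1, 2 or 3 and 21 without mixture library 2. Pancreatic lipase-related protein 1 (13_Contig_894) stood at 2.45, 3.33 and 2.48 CPM in the imago and 16.6, 20.7 and 17.9 CPM in the mixture. Trypsin-7 (13_Contig_2864), a protein-digesting serine protease, stood at 26.3, 23.3 and 24.5 CPM against 95.5, 103 and 71.9 CPM. Both were tightly grouped within the imago and lower there, with log2 changes of -2.74 ± 0.27 and -1.87 ± 0.20 (adjusted p = 0.000105 and 0.000154). Both were highest in the subimago, a stage that does not feed.

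The named rises in this list carry names of lysosomal rather than gut enzymes. Cathepsin L-like protein (13_Contig_864), a cysteine protease, was at 274, 299.8 and 291 CPM in the imago and at 189, 184 and 175 CPM in the mixture. Alpha-mannosidase (13_Contig_4849), which trims sugars from glycoproteins, was at 175, 199 and 180.2 CPM against 118, 83.0 and 127 CPM. The imago was higher without overlap in both, by 0.66 ± 0.12 and 0.76 ± 0.16 on the log2 scale (adjusted p = 0.00543 and 0.0102), and neither lost its call when any 1 of the 6 libraries was left out. Lysosomal alpha-glucosidase (13_Contig_1617) rose by 0.41.

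Detoxification enzymes showed 5 rises and 11 falls among 133 tested of 172 unigenes. These shares, 3.76% and 8.27%, were below the 11.2% and 11.8% over all tested animal-hit unigenes. The median log2 change of -0.48 turned slightly positive with library totals alone. The falls numbered 5, 6 and 4 and the rises 0, 1 and 1 without imago library 1, 2 or 3, and the rises 2 and 1 without mixture library 1 or 2. RLE size factors gave 13 rises and 11 falls and library totals alone 14 and 9. Glutathione S-transferase sigma (13_Contig_8778), which joins glutathione to foreign compounds, had 3 reads in the imago libraries together and 11.8, 20.4 and 5.66 CPM in the mixture. Its mixture level was 635 times the imago level, with an exact 95% Poisson interval of 217 to 3081. It was a larval transcript, with 179 ± 79.1 CPM in young larvae and 0.0140 ± 0.0243 CPM in subimagoes. A Carboxylesterase (13_Contig_15464) fell by 2.04 on the log2 scale, while Putative cytochrome P450 CYP44 (13_Contig_13950) rose by 0.65 and a further Cytochrome P450 (13_Contig_5090) by 1.81.

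Storage and lipid transport proteins gave more falls than rises. In the list of haemocyanin, hexamerin and storage proteins, 22 of 30 unigenes were tested, 6 fell and 1 rose, with a median log2 change of -0.97. The steepest fall in the list was that of a 32 kDa apolipoprotein (13_Contig_13431), at 0.306, 0.466 and 0.544 CPM in the imago and 13.3, 93.7 and 1405 CPM in the mixture. The mixture libraries differed greatly among themselves but all lay above the imago. Its highest stage mean was 784 ± 492 CPM in the mature larva. Apolipoprotein D (13_Contig_20124), a lipocalin, and Apolipophorin (13_Contig_5361), the lipid shuttle of insect blood, fell by 6.88 and 1.26 on the log2 scale. Melanotransferrin (13_Contig_6910), an iron-binding protein, rose by 0.57. Trehalose and glycogen genes, 9 tested of 21, gave 4 falls and 1 rise, with a median log2 change of -1.18. Glycogen debranching enzyme (13_Contig_1849), which frees glucose from glycogen branches, was at 35.3, 38.7 and 34.8 CPM in the imago and at 505, 409.6 and 319 CPM in the mixture. The mixture was about 11.3 times higher (adjusted p = 0.000297). Trehalase (First_Contig221), which splits the insect blood sugar, rose by 0.63.

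Part of the genes of mitochondrial energy supply fell. Of 114 unigenes for oxidative phosphorylation, 63 were tested, 13 fell and none was called higher, with a median log2 change of -0.65 (-0.47 at the floor), and the mature larva was the highest stage for 9 of the falls. Cytochrome b (First_Contig532), part of respiratory complex III and encoded in mitochondrial DNA, had high read counts and was picked for that. It stood at 3029, 3038 and 2854 CPM in the imago and at 13263, 18994 and 8432 CPM in the mixture. Cytochrome c oxidase subunit 1 (Second_Contig6), also mitochondrial and picked likewise, stood at 3132, 2744 and 2854 CPM against 9655, 13136 and 8112 CPM. Both were about equal in the 3 imago libraries and higher in every mixture library, with log2 changes of -2.19 ± 0.35 and -1.82 ± 0.23 (adjusted p = 0.00182 and 0.000415). ATP synthase subunit a (13_Contig_26856) and NADH-ubiquinone oxidoreductase chain 2 (13_Contig_1373), whose genes also lie in animal mitochondrial DNA, fell by 2.22 and 2.12 on the log2 scale. Among subunits encoded in the nucleus, NADH dehydrogenase [ubiquinone] 1 beta subcomplex subunit 11 (13_Contig_2010) fell by 3.47, from 338, 618 and 196 CPM to 35.6, 35.7 and 32.5 CPM.

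Glycolysis and the citrate cycle gave 3 rises and 8 falls among 53 tested of 92 unigenes, with a median log2 change of -0.49. These shares were 5.66% and 15.1%, beside 11.2% and 11.8% over all tested animal-hit unigenes. The falls numbered 3, 4 and 4 without imago library 1, 2 or 3, and 5 and 4 without mixture library 1 or 2. No rise was called without imago library 1, 2 or 3 or mixture library 2, and the balance turned with the scaling, to 8 rises and 4 falls with RLE size factors and 9 and 1 with library totals alone. The same enzyme names occurred on both sides. Citrate synthase, the entry enzyme of the cycle, fell in 13_Contig_781 (106, 109 and 104 CPM against 251, 486 and 274 CPM) and rose in 13_Contig_6496 (62.8, 59.2 and 56.8 CPM against 50.5, 40.3 and 32.7 CPM). Neither showed overlapping groups, and the log2 changes were -1.66 ± 0.31 and 0.53 ± 0.15. Phosphoglycerate kinase (13_Contig_1917), a glycolytic enzyme that yields ATP, rose by 1.04, with 208, 197 and 201 CPM against 120.2, 65.1 and 110.0 CPM.

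Fatty acid genes, 63 tested of 81, gave 3 rises and 6 falls, and their median of -0.39 changed sign with the scaling. Both shares, 4.76% and 9.52%, were below the 11.2% and 11.8% over all tested animal-hit unigenes. RLE size factors gave 7 rises and 5 falls and library totals alone 8 and 4. Elongases of very long chain fatty acids, whose products include precursors of waxes, split. A Putative elongase (13_Contig_11268) was at 35.4, 37.1 and 35.1 CPM in the imago and at 17.8, 14.6 and 11.8 CPM in the mixture. A second (13_Contig_1708) was at 204, 260.2 and 183 CPM against 126, 104 and 149.9 CPM. Both rises, of 1.28 ± 0.25 and 0.77 ± 0.15 on the log2 scale (adjusted p = 0.00652 and 0.00603), kept their call in all 6 leave-one-out fits, and another elongase (13_Contig_587) was lower by 0.90. Putative fatty acyl-CoA reductase (13_Contig_6103), which makes fatty alcohols, fell by 3.16, from 53.7, 48.8 and 67.6 CPM to 7.50, 6.53 and 5.05 CPM (adjusted p = 2.14e-05). It was highest in the subimago, at 109 ± 26.8 CPM.

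In ion transport and osmoregulation, 80 of 103 unigenes were tested, 17 fell and 6 rose, with a median log2 change of -0.40 that changed sign with the scaling. The falls numbered 8, 10 and 9 without imago library 1, 2 or 3 and 8 without mixture library 2. No rise was called without imago library 1, 2 or 3 or mixture library 2, while library totals alone gave 13 rises and 8 falls. Subunits of the sodium pump, which powers ion uptake and nerve activity, were among the falls. Na+/k+ atpase alpha subunit (13_Contig_504) stood at 383, 377 and 333 CPM in the imago and at 741, 859.6 and 801 CPM in the mixture. Sodium/potassium-transporting ATPase subunit beta-2 (13_Contig_563) stood at 99.5, 102 and 87.3 CPM against 274, 278 and 262 CPM. Both groups were tight and apart, with log2 changes of -1.13 ± 0.16 and -1.49 ± 0.16 (adjusted p = 0.000784 and 0.000203), and both were highest in the mature larva. V-type proton ATPase subunit S1 (13_Contig_798) and Chloride channel protein (13_Contig_5303) rose by 0.56 and 0.47.

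Cytosolic ribosomal proteins, the protein part of the translation machinery, fell in large number. Of 226 unigenes, 110 were tested, 56 fell and 1 rose, with a median log2 change of -1.51. Setting the members with no read in 1 of the groups to the floor gave -1.26. Leaving out 1 library gave 46 to 56 falls. The young larva was the highest stage for 55 of the 56. Ribosomal protein L5 (13_Contig_5366) was at 17.5, 19.1 and 19.6 CPM in the imago, at 86.8, 155 and 124 CPM in the mixture and at 477 ± 37.8 CPM in young larvae. 60S ribosomal protein L34 (13_Contig_2525) was at 10.9, 12.7 and 11.9 CPM against 45.1, 80.5 and 54.7 CPM. Both were several-fold lower in every imago library, with log2 changes of -2.70 ± 0.17 and -2.34 ± 0.18 (adjusted p = 1.62e-05 and 2.29e-05). The exception was a unigene named 60S ribosomal protein L7/L12 (13_Contig_1905), in the list by its name alone, which rose by 0.40. Its call was lost without imago library 1, 2 or 3 or mixture library 2.

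Immune genes gave 14 falls and 1 rise among 57 tested of 72 unigenes, with a median log2 change of -0.64. The falls numbered 6, 7 and 5 without imago library 1, 2 or 3 and 9 without mixture library 1 or 2. Protein toll (13_Contig_12415), by name a receptor of the Toll pathway, was at 0.708, 0.615 and 0.621 CPM in the imago and 3.74, 9.16 and 7.07 CPM in the mixture, a change of -3.36 ± 0.43 (adjusted p = 0.000520). It was highest in young larvae at 90.5 ± 4.77 CPM. Serpin-8 (13_Contig_19902), a protease inhibitor by name, was at 0.440, 0.594 and 0.582 CPM against 5.30, 10.5 and 180.5 CPM. All mixture libraries were above the imago, library 3 by far the most, and its adjusted p of 0.0129 rose to at most 0.0683 when an imago library was left out. Toll-7-like protein (13_Contig_1055) rose by 0.58.

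Among rises with no overlap, a protein name and at least 10 CPM in the imago, the largest outside the lists were a mixed set. Larger called rises, up to 4.91 on the log2 scale, were left out by the rule for names. ATP-binding cassette sub-family G member (13_Contig_7106), of a transporter family that moves lipids, had the largest of the rises named by the rule. It stood at 26.3, 37.8 and 33.2 CPM in the imago and at 7.29, 5.31 and 8.62 CPM in the mixture. All imago libraries were above the mixture by a wide margin, and the log2 change was 2.20 ± 0.49 (adjusted p = 0.0129). It was rare in the other stages, with 0.261 CPM in young larvae, 0.690 in mature larvae and 1.87 in subimagoes. Calpain-A (13_Contig_4952), a calcium-dependent protease, rose from 27.3, 24.1 and 23.5 CPM to 62.1, 71.0 and 42.3 CPM. B(0,+)-type amino acid transporter (First_Contig646) rose from 23.6, 31.2 and 23.2 CPM to 53.2, 58.1 and 61.7 CPM. Both kept their call in all 6 leave-one-out fits, at log2 changes of 1.23 ± 0.22 and 1.15 ± 0.23, while the ABC transporter lost it without mixture library 2 (adjusted p = 0.0654).

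Most named rises were less stable. Of the 56 unigenes named as rises, 11 kept their call in all 6 fits that left out 1 library, against 62 of the 75 named as falls. Each of those 11 is said in its place to have kept its call, and every other rise named by the rule lost it at least once. Calls were lost by 42, 37 and 38 of the 56 without imago library 1, 2 and 3, and by 40 without mixture library 2.

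Genes of eggs and the germ line were mixed. Of 36 unigenes for egg yolk, eggshell and oogenesis, 28 were tested, 4 rose and 3 fell, with a median log2 change of 0.33. These shares, 14.3% and 10.7%, were near the 11.2% and 11.8% over all tested animal-hit unigenes. No rise was called without imago library 1, 2 or 3 or mixture library 2, and 1 to 13 were under other scalings or DESeq2. Vitellogenin receptor (13_Contig_5313), which takes yolk protein into the egg cell, was at 126, 127 and 136 CPM in the imago and at 87.5, 46.1 and 75.2 CPM in the mixture. It had no read in the 3 young larva libraries. The rise of 0.90 ± 0.27 (adjusted p = 0.0477) lost its call without imago library 1, 2 or 3 or mixture library 2. Vitellogenin (13_Contig_814), the yolk precursor itself, went the other way, with 401, 229.8 and 342 CPM in the imago and 727, 611 and 832 CPM in the mixture. The groups did not overlap, but its call (adjusted p = 0.0382) was lost when any 1 library was left out. No stage library exceeded 401 CPM, so all 3 mixture libraries were above all 12 stage libraries.

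Chorion peroxidase, an enzyme that hardens the eggshell in mosquitoes, rose in 13_Contig_16163 (18.6, 27.6 and 19.4 CPM against 7.63, 8.58 and 7.6 CPM) and fell in 13_Contig_8552 (1.40, 1.15 and 1.22 CPM against 52.2, 38.3 and 16.0 CPM). Neither overlapped, and the log2 changes were 1.46 ± 0.41 and -4.82 ± 0.51. The first was highest in the imago and the second in the subimago, at 81.7 ± 37.2 CPM. The rise lost its call in all 6 leave-one-out fits, with an adjusted p of up to 0.107, and the fall in none. Putative germ-line stem cell division protein (13_Contig_7494), whose annotation names the piwi family that silences transposons in the germ line, was at 361, 435 and 449.5 CPM in the imago and at 166, 124 and 195 CPM in the mixture. It was nearly absent from young larvae, at 0.879 ± 0.278 CPM, and rose by 1.36 ± 0.38 (adjusted p = 0.0321), a call lost in 5 of the 6 leave-one-out fits. In sperm and axoneme, 36 of 67 unigenes were tested, 1 rose and 2 fell, and the median of -0.19 changed sign with the scaling. Both shares, 2.78% and 5.56%, were below the 11.2% and 11.8% over all tested animal-hit unigenes. Intraflagellar transport protein 140-like (13_Contig_1235), which serves the building of cilia, rose by 0.86, and Dynein beta chain, ciliary (13_Contig_5993), a motor subunit, fell by 1.19.

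DNA replication and cell division gave rises and no fall. Of 73 unigenes, 62 were tested, 15 rose and none was called lower, with a median log2 change of 0.54. Without imago library 1, 2 or 3 or mixture library 2, 0, 1, 0 and 0 were called, and with other scalings or DESeq2 the number was 5 to 43. All 15 had their highest stage mean in the imago. Proliferating cell nuclear antigen (13_Contig_3935), the sliding clamp of replication, was at 111, 109 and 115 CPM in the imago and at 78.4, 70.0 and 74.3 CPM in the mixture. Ribonucleoside-diphosphate reductase (13_Contig_8070), which makes the building blocks of DNA, was at 103, 96.4 and 95.8 CPM against 61.4, 48.1 and 51.2 CPM. The groups were tight and apart in both, with log2 changes of 0.59 ± 0.14 and 0.88 ± 0.22 (adjusted p = 0.0166 and 0.0211). Protein abnormal spindle (13_Contig_12173) of this list and, outside it, Kinesin-like protein KIF2A (13_Contig_16001) and Gamma-tubulin complex component 5 (13_Contig_7427), all of the mitotic spindle, rose by 1.38, 1.14 and 1.13.

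Heat shock proteins and chaperones, which keep proteins folded, gave more rises than falls. Of 126 unigenes, 88 were tested, 22 rose and 3 fell, with a median log2 change of 0.39. The rises numbered 4, 5 and 4 without imago library 1, 2 or 3, and 3 without mixture library 2. Small heat shock proteins, which hold unfolded proteins without using ATP, made the 3 largest rises of the list. These were 1.96 on the log2 scale for a low-level unigene (13_Contig_22928, picked after its value was seen), 1.93 for 13_Contig_4930 and 1.52 for Heat shock protein 20.7 (13_Contig_4902). The last was at 159, 166 and 144 CPM in the imago and at 48.2, 60.0 and 55.3 CPM in the mixture. Its stage means climbed from 8.75 CPM in young larvae through 35.3 in mature larvae and 77.9 in subimagoes to 156 in imagoes. Its rise of 1.52 ± 0.25 (adjusted p = 0.00244) kept its call in all 6 leave-one-out fits. Endoplasmin (13_Contig_729), the HSP90 of the endoplasmic reticulum, was at 579.7, 538 and 556 CPM against 353, 246 and 302.4 CPM. T-complex protein 1 subunit eta (13_Contig_125), part of the ring that folds actin and tubulin, was at 169, 159 and 164 CPM against 119.6, 93.7 and 112 CPM. Both were higher in every imago library, by 0.89 ± 0.19 and 0.59 ± 0.12, and kept their call likewise. Heat shock 70 kDa protein 12A (13_Contig_17420) fell by 2.92.

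The ubiquitin system, which tags proteins for destruction, held the largest number of rises of any list. Of 196 unigenes, 158 were tested, 42 rose and 4 fell, with a median log2 change of 0.35. The rises numbered 2, 7 and 3 without imago library 1, 2 or 3 and 2 without mixture library 2, and other scalings or DESeq2 gave 25 to 103. Ubiquitin-associated protein 1 (13_Contig_5031), which sorts tagged membrane proteins in vertebrates, was at 62.6, 61.4 and 64.9 CPM in the imago and at 43.2, 30.0 and 38.8 CPM in the mixture. Small ubiquitin-related modifier (13_Contig_2131), the SUMO tag, was at 109.6, 109 and 107 CPM against 81, 64.7 and 65.8 CPM. Both rose without overlap, by 0.75 ± 0.15 and 0.62 ± 0.14 (adjusted p = 0.00589 and 0.0123). The first kept its call in all 6 leave-one-out fits and the second lost it without imago library 1 or mixture library 2. A Ubiquitin carboxyl-terminal hydrolase, which removes the tag, rose in 13_Contig_3521 (0.67) and fell in 13_Contig_7438 (-0.71). Hect E3 ubiquitin ligase (First_Contig482) was lower by 0.40, a call lost when any 1 of the 6 libraries was left out.

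**Figure D4:**
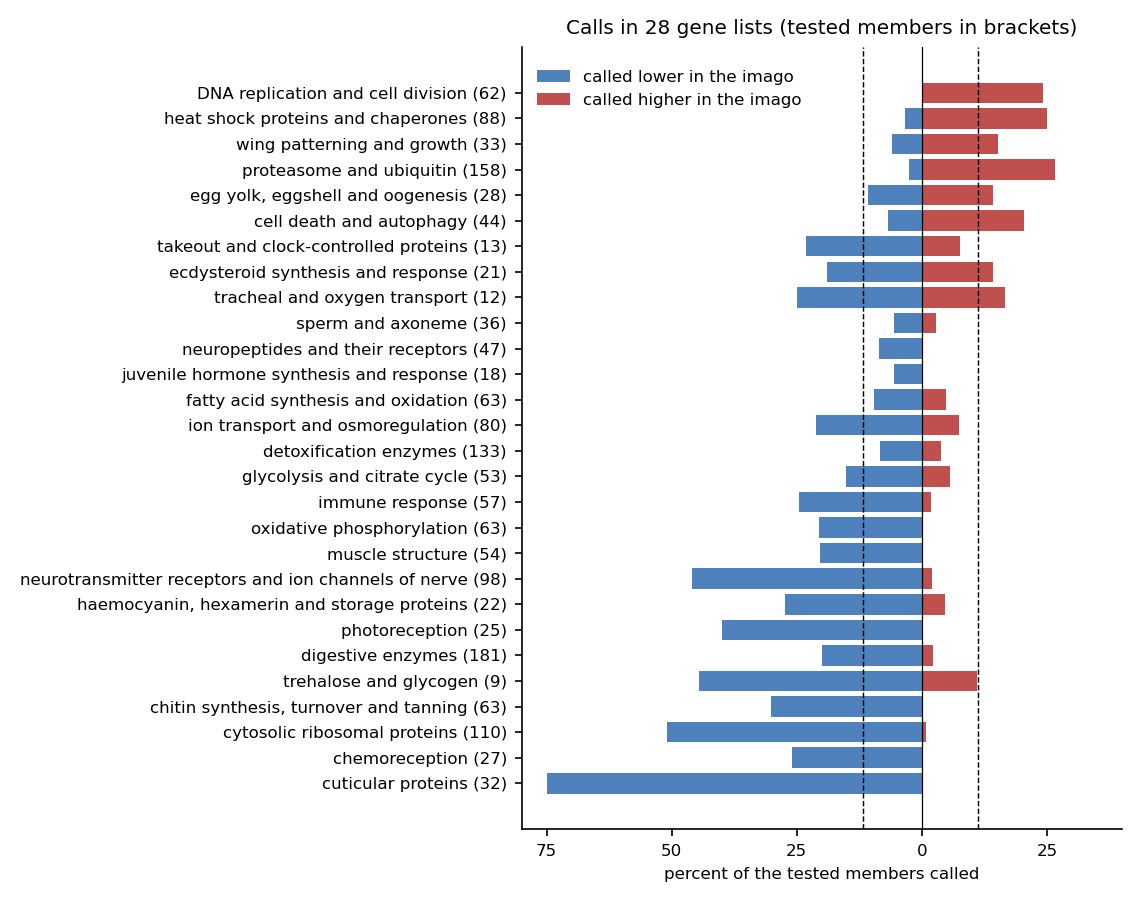
Percent of tested members called higher (right of 0) and called lower (left of 0) in the imago in each of the 28 gene lists (vertical axis, tested members in brackets), with dashed lines at the shares over all tested animal-hit unigenes, 11.2% and 11.8%. Rises outnumber falls in the ubiquitin (42 and 4), chaperone (22 and 3) and replication (15 and 0) lists, and falls outnumber rises in the ribosomal (1 and 56), nerve (2 and 45) and cuticular (0 and 24) lists.

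Some autophagy genes rose and death-associated kinases fell. Of 50 unigenes for cell death and autophagy, 44 were tested, 9 rose and 3 fell, with a median log2 change of 0.32. Unigenes named Autophagy-related protein 2-like, which feeds lipid to the growing autophagosome in yeast and mammals, rose by 0.63 (13_Contig_4896) and 0.75 (13_Contig_8941), and Autophagy-related protein 101 (13_Contig_4329) by 0.51. Putative death-associated protein kinase dapk-1 (13_Contig_5821) was at 6.08, 5.68 and 8.74 CPM in the imago and at 28.9, 38.7 and 31.8 CPM in the mixture. This fall of 2.28 ± 0.31 on the log2 scale (adjusted p = 0.000662) was matched by a second unigene of that name (13_Contig_13387), at -2.26. Rises in the list numbered 1, 1 and 0 without imago library 1, 2 or 3 and 0 without mixture library 2.

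Wing genes gave 5 rises and 2 falls among 33 tested of 41 unigenes, with a median log2 change of 0.37. These shares were 15.2% and 6.06%, beside 11.2% and 11.8% over all tested animal-hit unigenes. The larger fall was that of the delta unigene given above. The rises numbered 1, 0 and 2 without imago library 1, 2 or 3, 3 and 0 without mixture library 1 or 2, and 2 to 17 under other scalings or DESeq2. Vestigial (13_Contig_18470), a selector gene of wing formation in Drosophila, was at 17.4, 22.0 and 14.8 CPM in the imago and at 6.05, 7.74 and 11.3 CPM in the mixture. Frizzled-7 (13_Contig_6840), by name a Wnt receptor, was at 174, 156 and 163 CPM against 105, 70.4 and 117 CPM. Both were higher in every imago library, by 1.11 ± 0.25 and 0.75 ± 0.19 (adjusted p = 0.0140 and 0.0203). Apterous a (13_Contig_14646), which sets the dorsal side of the Drosophila wing, rose by 0.81. Vestigial lost its call without imago library 2 or mixture library 2, Frizzled-7 in 4 and Apterous a in 5 of the 6 leave-one-out fits.

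Clock and tracheal genes were few. Timeless (13_Contig_9379), a clock gene in Drosophila, fell by 1.07, from 22.1, 23.6 and 27.3 CPM to 11.0, 10.9 and 12.9 CPM. Timeless-like protein (13_Contig_617) rose by 0.67, and the whole list of takeout and clock-controlled proteins gave 1 rise and 3 falls among 13 tested. In the list of tracheal and oxygen transport, 12 unigenes were tested, 2 rose and 3 fell, and its median of -0.18, like that of the clock list, changed sign with the scaling. Trachealess (13_Contig_14837), which starts trachea formation in Drosophila, fell by 2.28 on the log2 scale. Hypoxia-inducible factor 1 alpha (13_Contig_2330), the oxygen-sensing transcription factor, and Hypoxia up-regulated protein 1 (13_Contig_10350), a chaperone, rose by 0.62 and 1.09.

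**Figure D5:**
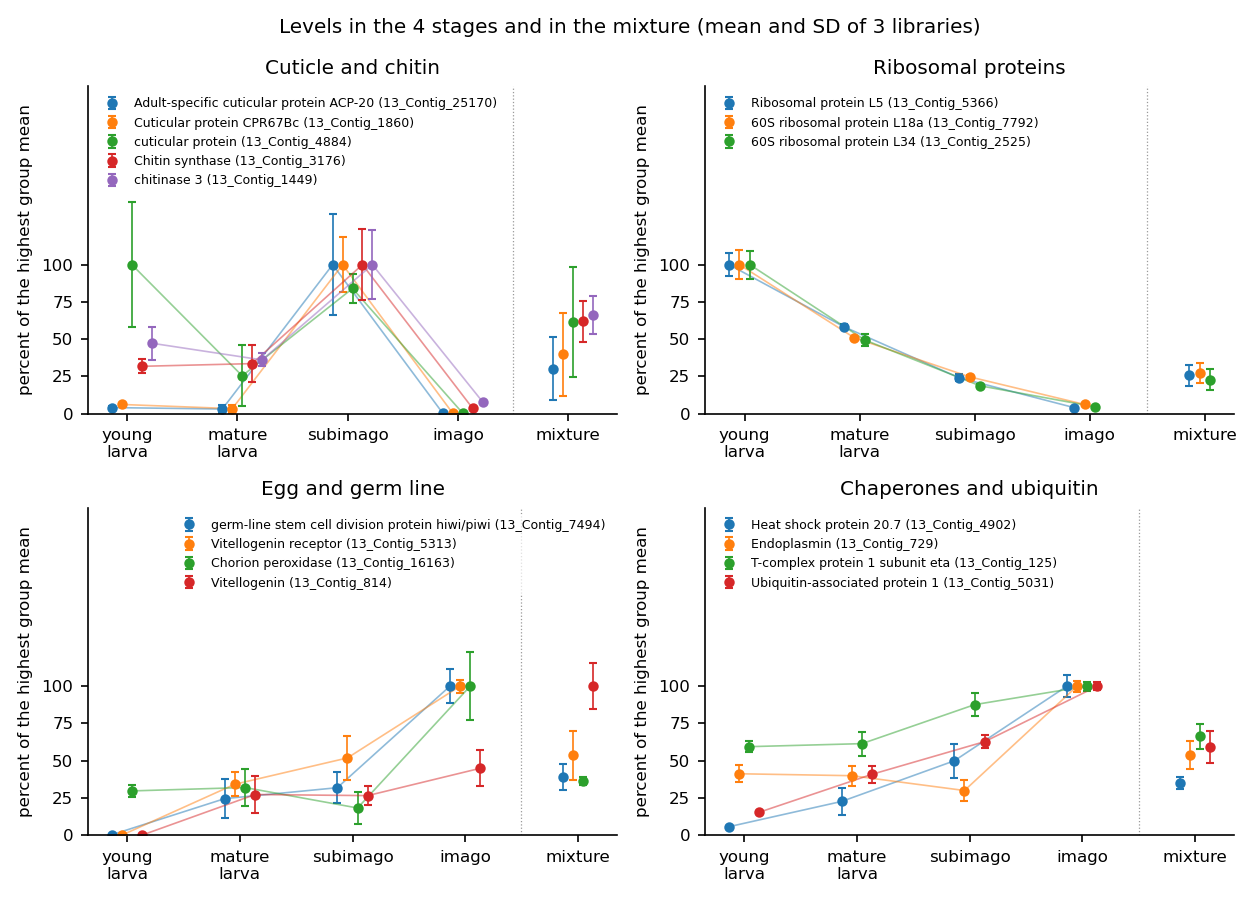
Mean level in the 4 stages and the mixture (horizontal axis), as a percent of each unigene's own highest group mean (vertical axis), with bars for the SD of 3 libraries. In 4 panels, cuticle and chitin unigenes peak in the subimago or young larva and lie near 0 in the imago, ribosomal proteins fall from the young larva on, and chaperones peak in the imago. Vitellogenin (13_Contig_814) is the 1 unigene whose mixture mean, 723 CPM, exceeds every stage mean.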

How the data were processed

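Per the labels' protocols, RNA was extracted with TRIzol, TruSeq libraries were prepared from about 1 µg of it, and a HiSeq sequencer gave paired reads of 125 bp. After removal of reads of low quality or from ribosomal RNA, CLC Genomics Workbench and then CAP3 built the assembly, without a genome. DESeq is named, with no version, in the submitters' processing notes. Mapper, counter and strand setting: not given in the sources used here.

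The deposited table gives raw read counts of 91881 unigenes in each library, with the RPKM values the authors computed from them. Each deposited RPKM equals the count divided by unigene length and library total, within a relative difference of 3.42e-07. Several unigenes can be pieces or near copies of 1 gene, and a gene and its antisense partner cannot be told apart, so values of single family members are uncertain. RPKM values served only as an alternative for the stage weights. No genome or sequence file was used here, so unigenes have neither position nor sequence.

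Of 434 species codes of best hits, 338 were sorted as animal. The counts were fitted with edgeR 4.0.16 (glmQLFit and glmQLFTest, robust, TMM scaling, filterByExpr) in R 4.3.3 with limma 3.58.1. All 15 libraries in 5 groups shared 1 estimate of the spread, and Benjamini-Hochberg adjustment ran over all 34131 tested unigenes, called at 0.05. An SE is the absolute log2 change divided by the square root of the F statistic. The fit was tested on simulated counts. There it recovered large changes nearly completely and changes of a factor near 2 only in part, so small changes that were not called may be real. The simulated spread between libraries (dispersion 0.05) was a chosen setting, below the common dispersion of 0.330 in the real fit. The simulation can therefore overstate how much was recovered in these data. Its pass rule was narrowed to the large changes after the first rule failed at a factor of 2. Levels are CPM after TMM, not divided by length, and are not compared between unigenes. Stage weights are non-negative least squares weights over tested animal-hit unigenes, each divided by its mean over the 4 stages. DESeq2 1.42.0, other scalings, filters and left-out libraries were run as alternatives. Intervals and floors of 3 reads cover counting error only.

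Members, the 28 gene lists and the rule for names were chosen with earlier results of these data known. The lists are word matches in protein names, and some word patterns were corrected after values were seen, to drop proteins that did not belong. The rule named the 15 largest called rises and 15 largest called falls without overlap and with at least 10 CPM in the higher group. For each list it further named up to 3 called members a direction with the smallest adjusted p and at least 5 CPM. Lists carry no test of their own.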

Additional observations from a re-analysis of the deposited data

Results flagged for a closer look

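Reads outside the animal-hit unigenes gave signals that the comparison does not use. Unigenes whose best hit was a protist or fungus took 0.488%, 0.369% and 0.477% of reads in the imago libraries, a mean of 0.444% ± 0.0658 (SD, n = 3). In the mixture they took 0.315%, 0.255% and 0.247%, a mean of 0.272% ± 0.0368. As shares of all reads, every imago library was above every mixture library. Unigenes without a hit took 22.0%, 35.8% and 21.3% of reads in imago libraries 1, 2 and 3. In mixture libraries 1, 2 and 3 they took 43.1%, 45.3% and 54.8%, which lowers every other share there. The shares were not rescaled by the TMM factors. Of 2924 tested unigenes with a protist or fungal hit, 8 (0.274%) were called higher and 28 (0.958%) lower in the imago. Both shares were below the 5.22% and 11.5% over all tested unigenes. The source of the reads with a protist or fungal hit was not tested.

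Among 17765 tested unigenes with no protein hit, edgeR's quasi-likelihood test called 270 (1.52%) higher and 2305 (13.0%) lower in the imago than in the mixture. Over all tested unigenes the shares were 5.22% and 11.5%, so the share of falls was near that of the whole table. What they encode was not tested.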

How the results depend on the processing

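Counts of animal-hit unigenes called higher were 1504 in the fit as described. They were 3998 with RLE size factors, 4340 with library totals alone, 4698 with DESeq2, 3200 with at least 1 CPM in at least 3 libraries, 788 with TMM factors from arthropod-hit unigenes and 835 with no filter. Leaving out 1 library gave 115 to 2009. Counts called lower were 1588 in the fit as described, 810 with library totals alone and 819 to 1400 with 1 library left out. All other alternatives stayed within a factor of 1.5 in both directions, among them 2010 rises and 1934 falls without mature larva library 1 and 1790 and 2074 with the 6 compared libraries alone. The share of calls that were rises moved to 74.5% with RLE, 84.3% with library totals, 72.6% with DESeq2, 28.2% with arthropod-hit TMM and 66.8% with the stricter filter, from 48.6%. DESeq2 gave no adjusted p for 202 unigenes.

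Of the 131 named unigenes, 1 changed direction, Hect E3 ubiquitin ligase (First_Contig482), whose log2 change was 0.0566 with library totals alone. No mean stage weight moved by more than the SD between mixture libraries under deposited RPKM values, arthropod-hit unigenes or left-out imago or mixture libraries. That limit was loose, since the SD was 21.5 points for the mature larva and 22.6 for the subimago. It was 4.29 for the young larva and 8.27 for the imago. Weights without mature larva library 1 were not computed. Replicate numbers showed no clear pairing of the libraries. Deviations of same-numbered imago and mixture libraries correlated at 0.0407, 0.0744 and 0.0117, and imago library 3 correlated better with mixture library 1, at 0.0311. Those of differently numbered libraries ranged from -0.0709 to 0.0311. Values this small cannot decide whether a weak pairing was present. With the number as a replicate block, 1240 were called higher and 1474 lower. With the block and only the 6 compared libraries, an alternative chosen after seeing the data, the counts were 1348 and 1696. At an unadjusted p under 0.05, 3353 were higher and 2500 lower.

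With 3 pools a group, the p-values measure only the spread between these pools. Mixture libraries varied more than imago libraries, and the shared spread includes mature larva library 1.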

Other observations

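Proteins of the nucleus and of RNA handling, grouped by word matches after values were seen, gave more rises than falls, beside 11.2% higher and 11.8% lower over all tested animal-hit unigenes. Nuclear pore proteins, which form the gate of the nucleus, gave 10 rises and no fall among 16 tested, with a median log2 change of 0.68, and all 16 had every imago library above every mixture library. Importins and exportins, which carry cargo through that gate, gave 10 rises and 1 fall among 22. RNA helicases gave 13 rises and 1 fall among 38, chromatin proteins 12 and 1 among 54, and kinesins 5 and 1 among 20. Splicing factors gave 9 rises and 2 falls among 45, and translation initiation factors 10 and 2 among 50. Aminoacyl-tRNA synthetases gave 3 and 2 among 34, a share of rises below 11.2%, with a median log2 change of -0.04. Other groups of nuclear proteins matched in the same way gave few calls. Homeobox proteins gave 1 rise and 1 fall among 29, and transposon-derived proteins 1 and 3 among 108. Most of these calls were lost when 1 of 4 libraries was left out, while the sizes moved less. The nuclear pore median was 0.681, 0.681 and 0.676 without imago library 1, 2 or 3, and 0.523 without mixture library 2. Without imago library 1, 2 or 3 or mixture library 2, nuclear pore proteins gave 1 to 2 rises, importins and exportins 0 to 1, RNA helicases 1, chromatin proteins 0 to 2, kinesins 0, splicing factors 0 to 4, initiation factors 1 to 3 and synthetases 0. Mitochondrial ribosomal proteins gave 3 rises and 1 fall among 28, a share of rises near 11.2%, where the cytosolic ones gave mostly falls. This difference was not tested. Osiris proteins fell in both tested unigenes, and sugar transporters gave 4 falls and no rise among 22.

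Among unigenes called higher with high read counts, 3 named after RNA-binding proteins or regulators of mRNA were chosen after their values were seen. Putative ATP-dependent RNA helicase me31b (13_Contig_448), which represses stored maternal mRNA in Drosophila oocytes, was at 2572, 2402 and 2473 CPM in the imago and 1734, 973 and 1469.7 CPM in the mixture (log2 change 0.83 ± 0.21, adjusted p = 0.0230). Vigilin (13_Contig_95), an RNA-binding protein, was at 1644, 1645 and 1659 CPM against 1189, 825 and 1195 CPM. Brain tumor protein (13_Contig_342), a translational repressor in Drosophila, was at 1324, 1287 and 1377 CPM against 853, 526 and 728 CPM. All 3 had every imago library above every mixture library, and lost their call without imago library 1 or 3 or mixture library 2. Exuperantia (13_Contig_1200), which localises mRNA in the Drosophila oocyte, fell instead by 0.68 on the log2 scale, a call kept without mixture library 1 and lost in the other leave-one-out fits.

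For 20 animal-hit unigenes (0.149%), all 3 mixture libraries lay above all 12 libraries of single stages, and for 10 they lay below, although the mixture pooled those stages. Pheromone binding protein (13_Contig_6758) was at 67.1 CPM in mixture library 1 and at 0.928 and 0.860 CPM in the others, with a highest stage library of 0.646 CPM. In mixture library 1, Odorant binding protein 5 and a Putative chemosensory protein were also high, as described above. All 3 imago libraries lay above all 12 others for 2769 unigenes (20.6%) and below them for 1248 (9.28%).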
